A study of Homo sapiens with 6 samples.

Results

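The cytosolic chaperonin CCT, also called TRiC, is built from the products of 8 genes, TCP1, CCT2, CCT3, CCT4, CCT5, CCT6A, CCT7 and CCT8. These genes were chosen by name, with earlier results of these data known. All 8 were found among the 21134 genes of the expression table. RNA had been sequenced from cardiomyocytes differentiated from the H9 line, a line of human embryonic stem cells that the study groups with its hiPSC-CMs. Of 6 libraries, 2 came from untreated cells (control), 2 from cells given 100 mM alcohol during 24 h, and 2 from cells given the same alcohol dose plus losartan at 1 μM during the same 24 h (co-treated). Losartan blocks the angiotensin receptor AT1R. All libraries share the H9 background, no losartan group without alcohol was analysed here, and nothing in the labels says that the 2 libraries of a group came from separate cultures, so p-values measure only the spread between these libraries.

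CCT is a barrel of paired stacked rings, and each ring carries every subunit once, in a fixed order. Newly made proteins enter the cavity, and the subunits bind and hydrolyse ATP to close a built-in lid over them while they fold. Actin and tubulin are its best known substrates, and in muscle it also takes part in the folding of proteins needed to assemble the sarcomere. Prefoldin, a separate chaperone, hands unfolded actin and tubulin to the ring, and phosducin-like proteins bind it as cochaperones. In this ring CCT2 and CCT5 sit next to each other, and TCP1, CCT2, CCT4 and CCT5 form the side that binds ATP most strongly.

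The genes lie apart in the genome, and their RefSeq spans on GRCh38.p14 were TCP1 at chr6:159778498-159789602, CCT2 at chr12:69585459-69601570, CCT3 at chr1:156308968-156338292, CCT4 at chr2:61868085-61888671, CCT5 at chr5:10249921-10266412, CCT6A at chr7:56051765-56063989, CCT7 at chr2:73234308-73253005 and CCT8 at chr21:29056326-29073648. CCT2, CCT5, CCT6A and CCT7 are read from the plus strand and the others from the minus strand. RefSeq upstream sequences were held for 7 of the 8 genes, all except CCT6A. The 250 bases before each start were searched on both strands for CCAAT (the CCAAT box, bound by NF-Y), GAANNTTC (the core of a heat shock element, bound by heat shock factors), CGGAAGT (a site of ETS factors), GGGCGG (the GC box, bound by SP1) and CACGTG (an E box).

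The CCAAT box was present in 4 of the 7 genes with an entry, against 37.0% of the 27305 genes with RefSeq entries and 32.0% of their 35116 windows. A gene was counted when any of its windows held the letters, and CCT2 and CCT4 had 2 windows each. The matches are shown because genes of a single complex can be compared directly at these letters. Each stretch is written 5′ to 3′ on the strand of the gene, with the match in capitals, and ATTGG is the CCAAT box read on the opposite strand. The CCT2 box began 91 bases before the start (position -91), those of CCT3 at -75 and -34, that of CCT8 at -63 and that of TCP1 at -154.
CCT2, chr12:69585358-69585382, plus strand: ccgtggggctCCAATcaaaatggga
CCT3, chr1:156338353-156338377, minus strand: aaggctgtcaATTGGtctgtttttg
CCT3, chr1:156338312-156338336, minus strand: gggtgcggtgATTGGcgactacctt
CCT8, chr21:29073697-29073721, minus strand: gggtgggctaATTGGagagccagga
TCP1, chr6:159789742-159789766, minus strand: cggctatctaATTGGacaaaaatgc

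The heat shock element core was found in 2 of the 7 genes, against 7.05% of all genes (5.78% of windows), and the ETS site in 3 of the 7, against 6.90% of genes (5.69% of windows). The heat shock match of TCP1 stood at -231. That of CCT2 stood at -89 from a second, downstream start of CCT2, inside the gene.
TCP1 heat shock core, chr6:159789816-159789843, minus strand: cgtttgaggcGAAGGTTCaacctcttcc
CCT2 heat shock core, chr12:69585790-69585817, plus strand: ccggagcgaaGAAATTTCtagtgtggga
The ETS matches, at -16 in CCT2, -63 in CCT7 and -196 and -113 in TCP1, are given next, with ACTTCCG as the opposite-strand reading.
CCT2 ETS site, chr12:69585433-69585458, plus strand: gtgtggcgtcACTTCCGgcttccttc
CCT7 ETS site, chr2:73234235-73234261, plus strand: catagagtagCGGAAGTggtccgttct
TCP1 ETS site, chr6:159789782-159789808, minus strand: ccaacatccgACTTCCGttctccgctt
TCP1 ETS site, chr6:159789699-159789725, minus strand: ccggagcctcACTTCCGtcacagtcct
The GC box was in 4 of the 7 genes (46.2% of genes, 42.6% of windows) and the E box in 0 (7.73% of genes, 6.35% of windows). No match was found in the windows of CCT4. The only window of CCT5 belongs to a downstream start and lies inside the gene, where no match was found, so the sequence before the outer start of CCT5 was not searched. CCT2, the subunit with the largest fitted differences from control described next, held the CCAAT, ETS and GC letters upstream of its outer start, and TCP1, with smaller ones, held them too. A match is a run of letters and not a measured binding site.

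Each library held between 4898287 and 5051448 expected counts, and cardiomyocyte markers were high, with TNNT2, the cardiac troponin T gene, between 3194 and 3728 FPKM. None of the 12 cardiomyocyte markers was listed at 0. Their summed FPKM was 26410 to 27040 in control, 19840 to 26350 with alcohol and 22670 to 24760 with co-treatment. Such a sum is weighted to the genes of highest FPKM. By edgeR the median log2 fold change of these markers from control was 0.02 with alcohol, with 7 above 0 and 5 below. With co-treatment it was -0.10, with 5 above 0 and 7 below. Pluripotency markers summed to at most 19.5 FPKM. The libraries of a group differed beyond counting noise, with a chi-square per gene of 4.54 for control, 7.31 for alcohol and 4.46 for co-treated, and a root mean square difference in log2 CPM of 0.427, 0.450 and 0.454. Counts in bulk RNA cannot tell fewer cells of a type from less RNA per cell.

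All 8 subunits were well expressed in untreated cardiomyocytes. Their levels are given in FPKM, which is scaled by transcript length, so that genes can be compared with each other. Averaged over the 6 libraries, the lowest of them, CCT5, stood at the 92.8th percentile of all genes and the highest, CCT7, at the 97.6th. In the control libraries the order, as mean ± SD with n = 2, was CCT7 at 114 ± 3.49 FPKM, CCT3 at 107 ± 6.55, CCT8 at 102 ± 0.113, CCT4 at 91.2 ± 2.61, CCT2 at 83.2 ± 11.5, CCT6A at 78.0 ± 0.764, TCP1 at 64.8 ± 0.509 and CCT5 at 50.4 ± 0.106. The ranges of CCT7 and CCT3 overlapped, as did those of CCT4 and CCT2. Within each control library CCT7 was above CCT3 and CCT4 above CCT2, an order that rests on 2 libraries. CCT2 and CCT6A changed places between the 2 libraries, so they could not be ordered. CCT3 was above CCT8 in both libraries, but its lower value, 102.34, was close to the higher value of CCT8, 102.32. TCP1 was below CCT6A and CCT5 below TCP1 in both control libraries. The FPKM of the highest subunit was 2.21 and 2.31 times that of the lowest there. Together the subunits took 0.155% and 0.161% of all counts.

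**Figure D1:**
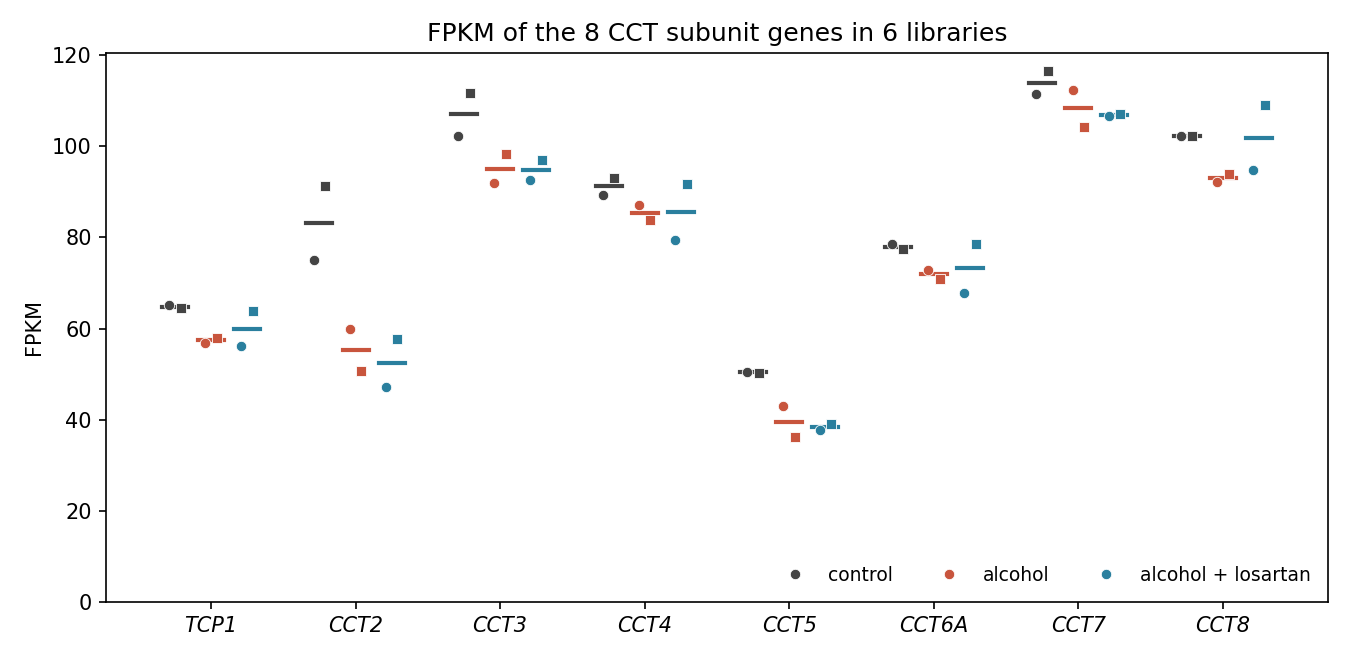
FPKM (vertical axis) of the 8 CCT subunit genes (horizontal axis) in control, alcohol and co-treated H9-derived cardiomyocytes. Circles stand for replicate 1, squares for replicate 2 and a bar for the mean of the 2. CCT2 was at 75.1 and 91.4 in control and at 47.1 to 60.0 in the 4 exposed libraries, and CCT5 was the lowest subunit in every library.

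CCT2, the beta subunit, which has also been described as a receptor that carries protein aggregates to autophagy, had the largest fitted difference from control of the 8, in both comparisons. It measured 75.1 and 91.4 FPKM in the control libraries, 60.0 and 50.6 in the alcohol libraries, and 47.1 and 57.7 in the co-treated libraries. Each of the 4 alcohol-exposed libraries was therefore below both controls, and the alcohol and co-treated libraries overlapped. Behind these values stood 743 and 900 expected counts in control, 593 and 487 with alcohol, and 452 and 568 with co-treatment. By edgeR's quasi-likelihood test, alcohol against control gave a log2 fold change of -0.62 (SE 0.15, 95% interval -0.94 to -0.30), which is 0.650 of the control level, with adjusted p = 0.147. Co-treatment against control gave -0.71 (SE 0.15, 95% interval -1.03 to -0.39), or 0.611 of control, with an adjusted p = 0.0669 by the same edgeR test. Neither passed the threshold of 0.05 over the 14926 genes tested.

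The CCT2 difference between co-treatment and control lay close to that threshold. For co-treatment against control it passed in 6 of 14 alternatives, with the smallest adjusted p, 0.0113, by DESeq2. Among the 6 were edgeR with only the 4 libraries compared and edgeR without either alcohol replicate, which keep the same 4 libraries of this comparison. CCT2 did not pass without control replicate 1 or 2 (log2 fold changes -0.83 and -0.58) or co-treated replicate 1 or 2 (-0.56 and -0.88). For alcohol against control it passed in 1 of 14, edgeR without alcohol replicate 1, at adjusted p = 0.0464 and a log2 fold change of -0.78. Without alcohol replicate 2 the same edgeR comparison gave -0.47 and an adjusted p = 0.766. In the 14 alternatives of each comparison with control the value was below 0.

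CCT5, the epsilon subunit, in which an inherited change causes a sensory neuropathy, was the other subunit whose intervals left out 0 in both comparisons with control. Its FPKM was 50.5 and 50.3 in control, 42.9 and 36.2 with alcohol, and 37.7 and 39.0 with co-treatment. Both control libraries were above all 4 exposed libraries. The corresponding counts were 935 and 936, 807 and 656, and 687 and 709. By edgeR the log2 fold change was -0.37 (SE 0.13, 95% interval -0.65 to -0.10) for alcohol against control, with adjusted p = 0.289. For co-treatment against control edgeR gave -0.45 (SE 0.13, 95% interval -0.72 to -0.17), with adjusted p = 0.154. CCT5 passed the threshold in 0 of 14 alternatives in either comparison. Without alcohol replicate 2 its alcohol value was -0.21 by edgeR (adjusted p = 0.942), and without alcohol replicate 1 it was -0.54 (adjusted p = 0.0932).

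The other subunits of the strongly ATP-binding side had smaller fitted values. TCP1, the alpha subunit and the first of the family to be identified, measured 65.1 and 64.4 FPKM in control, 56.9 and 57.9 with alcohol, and 56.1 and 63.9 with co-treatment. Its exposed libraries were below both controls, the second co-treated library by a small margin, and edgeR gave -0.22 (adjusted p = 0.545) and -0.16 (adjusted p = 0.648). CCT4, the delta subunit, measured 89.4 and 93.1 FPKM in control, 87.2 and 83.7 with alcohol, and 79.4 and 91.8 with co-treatment. Its co-treated libraries straddled the lower control, and its log2 fold change was -0.12 in both comparisons with control (adjusted p = 0.784 and 0.756 by edgeR).

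On the weakly ATP-binding side, CCT3, the gamma subunit, measured 102 and 112 FPKM in control, 91.8 and 98.3 with alcohol, and 92.7 and 96.9 with co-treatment. All 4 exposed libraries were below both controls, with -0.21 (adjusted p = 0.542) and -0.22 (adjusted p = 0.441) by edgeR. CCT6A, the zeta subunit, which has a testis paralog in CCT6B, measured 78.5 and 77.5 FPKM in control, 72.9 and 70.8 with alcohol, and 67.7 and 78.6 with co-treatment. The second co-treated library was the highest of the 6 for this gene, and edgeR gave -0.16 (adjusted p = 0.703) and -0.14 (adjusted p = 0.707).

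CCT7, the eta subunit and the most abundant of the 8 in every library but the second co-treated, measured 112 and 116 FPKM in control, 112 and 104 with alcohol, and 107 and 107 with co-treatment. The first alcohol library lay between the controls, and edgeR gave -0.12 (adjusted p = 0.766) and -0.14 (adjusted p = 0.674). CCT8, the theta subunit, measured 102 and 102 FPKM in control, 92.1 and 93.8 with alcohol, and 94.8 and 109 with co-treatment. Its alcohol libraries were below both controls and its co-treated libraries were on either side of them, with -0.18 (adjusted p = 0.646) and -0.05 (adjusted p = 0.902) by edgeR.

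**Figure D2:**
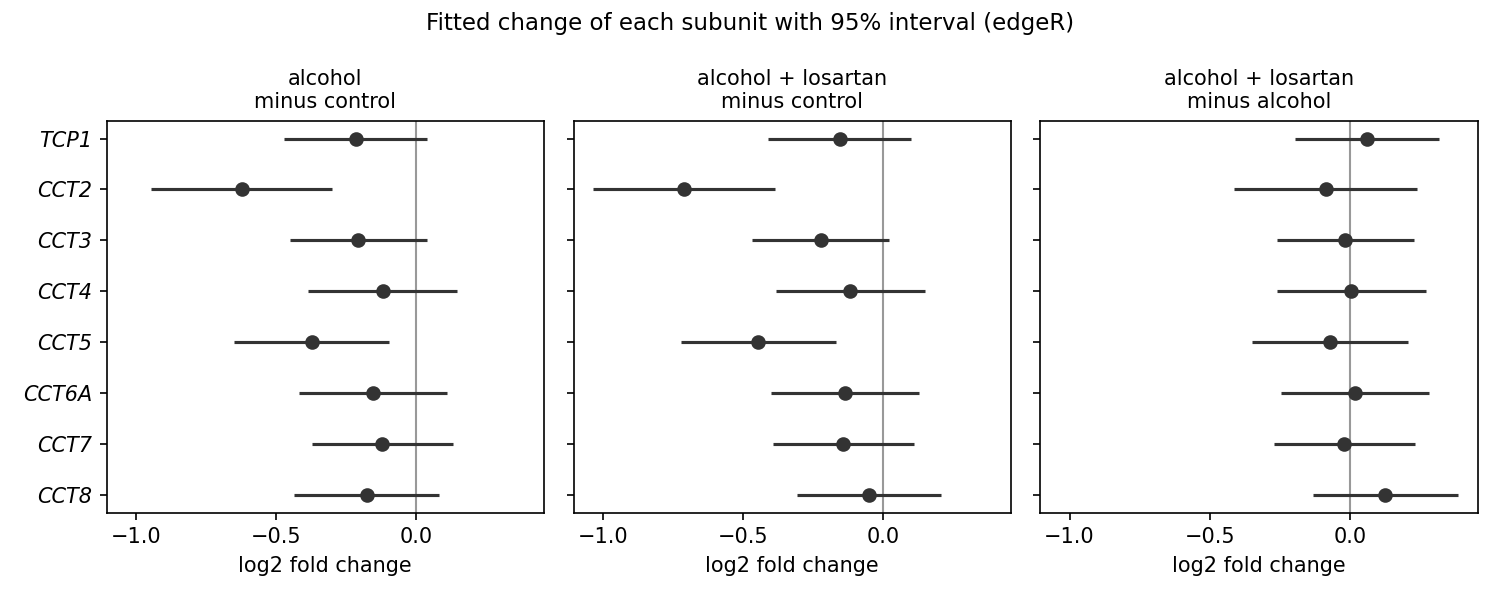
Fitted log2 fold change of each subunit with its 95% interval (edgeR) in the 3 comparisons, one panel each, with a line at 0. In both comparisons with control all 8 points lie below 0 and the intervals of CCT2 and CCT5 leave out 0, while in co-treatment against alcohol every interval covers 0.

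Across the set, alcohol against control called 0 of 8 subunits by edgeR, 0 by DESeq2 and 0 by limma, where edgeR called 0.0670% of all genes tested. At an unadjusted p under 0.05, 2 of 8 were lower (CCT2 and CCT5), against 5.78% of all genes lower at that level. All 8 fitted values were below 0, against 50.6% of all genes, with a median log2 fold change of -0.19 beside -0.0033 over all genes, whose lower quartile was -0.18. The FPKM of both alcohol libraries was below both controls for 7 of 8 subunits, all except CCT7, against 17.7% of genes, and above both for 0, against 24.7%. On TMM-scaled CPM (counts relative to library size), a scale added after seeing the data, it was 8 of 8 lower, against 21.8%. With 2 libraries on each side the smallest two-sided p of an exact permutation test is 0.333.

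Co-treatment against control called 0 of 8 subunits by edgeR, 1 by DESeq2 (CCT2) and 0 by limma, where edgeR called 0.362% of all genes. CCT2 and CCT5 again made up the 2 of 8 that were lower at an unadjusted p under 0.05, against 6.37% of genes. All 8 fitted values were below 0 (50.2% of all genes), with a median of -0.15 beside -0.0017 over all genes, whose lower quartile was -0.19. The groups did not overlap, with co-treatment lower, for 5 of 8 subunits, against 16.3% of genes, and with co-treatment higher for 0, against 27.1%. The TMM-scaled counts also gave 5 of 8 lower, against 21.7%. The exceptions were CCT4, CCT6A and CCT8, in each of which the second co-treated library reached the level of the controls. Both comparisons use the same control libraries, so their values are not independent of each other.

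Adding losartan to alcohol, compared with alcohol alone, called 0 of 8 subunits by edgeR, by DESeq2 or by limma (0.0134% of all genes by edgeR), and 0 of 8 at an unadjusted p under 0.05, against 5.55% of genes in either direction and 2.71% lower. The fitted values ran from -0.09 for CCT2 (95% interval -0.41 to 0.24) to 0.13 for CCT8 (95% interval -0.13 to 0.38), with 4 of 8 below 0 (49.7% of all genes) and a median of -0.0069. The co-treated libraries were both above the alcohol libraries for 1 of 8 subunits, CCT8, against 18.0% of genes, and both below for 0, against 14.3%. Taken gene by gene, intervals reaching from -0.41 (CCT2) to 0.38 (CCT8) limit what these libraries can show about alcohol with and without losartan. No interval was computed for the subunits as a set.

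Summed over the 8 genes, the subunits came to 691 ± 22.9 FPKM in control, 606 ± 14.4 with alcohol and 613 ± 43.7 with co-treatment (SD, n = 2), which is 87.7% and 88.7% of the control mean. The single libraries were 675 and 707, then 616 and 596, then 582 and 644 FPKM. All 4 exposed libraries were below both controls. The subunits did not differ from control in equal measure, and the ratio of the highest to the lowest subunit was 2.61 and 2.88 with alcohol and 2.83 and 2.80 with co-treatment, above both control values of 2.21 and 2.31.

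CCT2 took 11.1% and 12.9% of the summed FPKM in control, 9.73% and 8.50% with alcohol, and 8.08% and 8.96% with co-treatment. The difference of its mean share from control was -2.91 percentage points with alcohol and -3.505 with co-treatment. Counted from the highest, its rank among the 8 was 6 and 5 in control, 6 and 7 with alcohol, and 7 in both co-treated libraries. CCT5 took 7.48% and 7.12% in control, 6.97% and 6.07% with alcohol, and 6.48% and 6.06% with co-treatment, and had rank 8 in every library. Shares add to the whole, so a lower share of one subunit raises those of the others. CCT7 took 16.5% in both controls, 18.2% and 17.5% with alcohol, and 18.3% and 16.6% with co-treatment. CCT4 took 13.3% and 13.2%, then 14.2% and 14.1%, then 13.6% and 14.3%. No test was run on these shares.

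**Figure D3:**
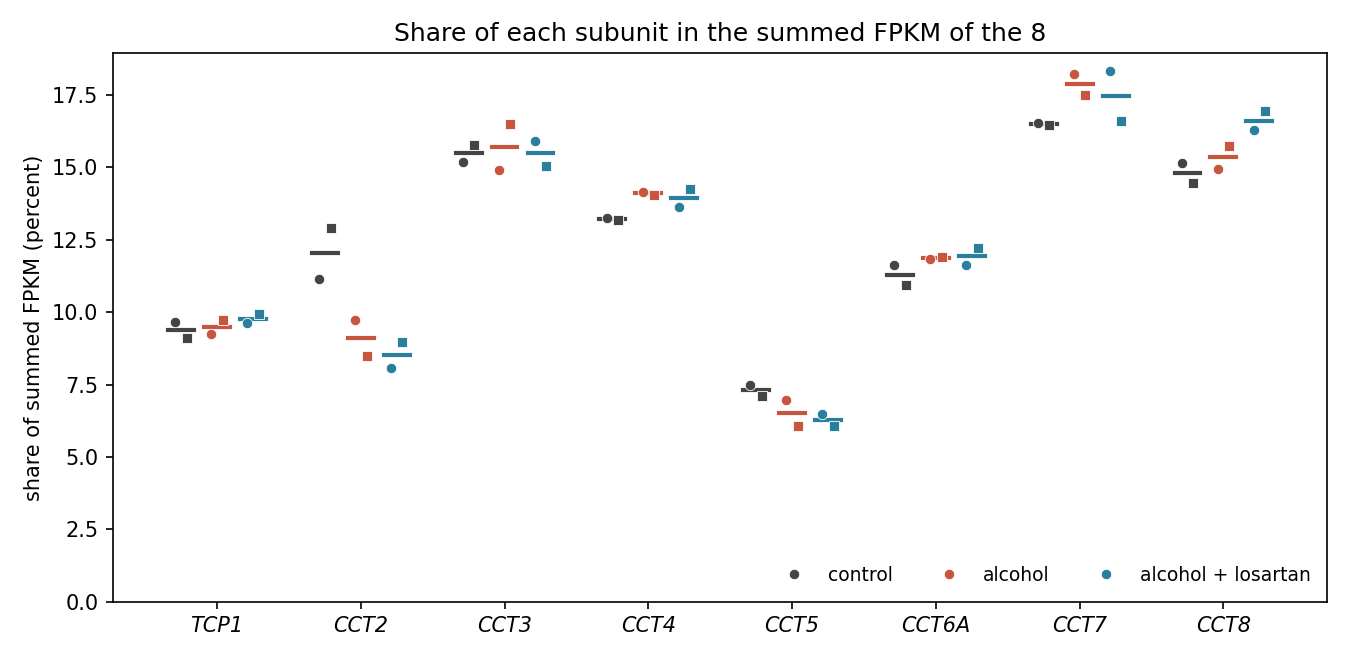
Share of each subunit (horizontal axis) in the summed FPKM of the 8, in percent (vertical axis), with circles for replicate 1, squares for replicate 2 and a bar for the mean of the 2. The share of CCT2 was 11.1% and 12.9% in the controls and between 8.08% and 9.73% in the 4 exposed libraries. That of CCT7 was above its control share of 16.5% in the 4 exposed libraries, by a small margin in the second co-treated library (16.6%).

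The counts of 6 subunits were whole numbers in all 6 libraries, while those of CCT3 and CCT6A were whole in 0. An estimated count that is not whole has reads divided among features, so the values of these 2 genes are less certain. The CCT6A copies were low: the pseudogene CCT6P1 ranged from 1.65 to 3.87 FPKM, CCT6P3 from 1.24 to 3.30, and the paralog CCT6B from 1.47 to 2.73. TCP1 shares 615 bases at its 3′ end with ACAT2 (acetyl-CoA acetyltransferase) on the opposite strand, of which 397 are exonic in both. ACAT2 measured 47.2 and 57.2 FPKM in control, 36.4 and 19.5 with alcohol, and 28.7 and 31.3 with co-treatment, and gave -0.91 (adjusted p = 0.149) and -0.83 (adjusted p = 0.123) by edgeR. CCT4 shares 281 bases at its 5′ end with COMMD1, 81 of them exonic in both, with -0.22 (adjusted p = 0.661) and -0.41 (adjusted p = 0.299) for COMMD1 by edgeR. Whether the counting used strand is not given in the sources used here, and the part of these overlaps in the values of TCP1 and CCT4 was not tested. The small RNAs SNORA20, SNORA29 and SNORA15 inside subunit genes, and TSACC over CCT3, reached at most 4 counts. CCT2, CCT5, CCT7 and CCT8 overlap no other gene in RefSeq.

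The proteins that work with CCT were next examined. Prefoldin, which delivers substrates, had 0 of 6 genes called by edgeR, by DESeq2 or by limma in either comparison with control. Over all genes edgeR called 0.0670% with alcohol and 0.362% with co-treatment, and these shares apply to the lists below too. At an unadjusted p under 0.05 it had 0 of 6 in both, against 5.78% and 6.37% of all genes lower. With 6 genes, counts of 0 are near these shares. The median log2 fold changes of prefoldin were -0.19 (alcohol) and -0.14 (co-treatment). PFDN1 gave -0.10 (adjusted p = 0.833) and -0.23 (adjusted p = 0.462) by edgeR. PFDN4 gave -0.19 (adjusted p = 0.764) and 0.15 (adjusted p = 0.786), and 0.34 (adjusted p = 0.900) in co-treatment against alcohol. Summed prefoldin FPKM was 402 to 420 in control, 413 to 433 with alcohol and 416 to 417 with co-treatment, so the ranges of the control and exposed libraries overlapped. PFDN5 made up the largest part of this sum.

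Among the phosducin-like cochaperones, 0 of 3 listed genes were called by edgeR, DESeq2 or limma in either comparison. PDCL3, which assists in actin and tubulin folding, was the only gene of the list lower at an unadjusted p under 0.05 with alcohol (5.78% of all genes). It measured 15.3 and 14.6 FPKM in control, 10.5 and 9.66 with alcohol, and 10.2 and 16.0 with co-treatment. The alcohol libraries were below both controls and the co-treated libraries were on either side, with -0.62 (adjusted p = 0.398) and -0.24 (adjusted p = 0.760) by edgeR. TXNDC9 gave -0.21 (adjusted p = 0.703) and -0.02 (adjusted p = 0.974). The 5 tubulin cofactors, which assemble tubulin dimers after CCT has released them, had medians of 0.05 and 0.01, with 0 called by the 3 tools. Against 5.78% and 6.37% of all genes, 0 and 1 of them were lower at an unadjusted p under 0.05. TBCB, the latter, gave -0.17 (adjusted p = 0.787) and -0.46 (adjusted p = 0.307), and TBCC 0.23 (adjusted p = 0.796) and 0.06 (adjusted p = 0.955) by edgeR.

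Tubulin genes encode main substrates of CCT, and most of them had fitted values below 0. With alcohol 10 of 11 fitted values were below 0 (50.6% of all genes), with a median of -0.68, and 9 were lower at an unadjusted p under 0.05 (5.78% of all genes). Here edgeR called 0, limma 0 and DESeq2 4 (TUBA1C, TUBB, TUBB2B and TUBB4B), and DESeq2 called 0.629% of all genes. With co-treatment 10 of 11 were below 0 (50.2% of all genes), with a median of -0.48, and 8 were lower at an unadjusted p under 0.05 (6.37% of all genes), where edgeR called 0, limma 0 and DESeq2 1 (TUBB6), with 1.12% of all genes called by DESeq2. TUBA1B, the main alpha-tubulin, measured 761 and 1263 FPKM in control, 576 and 545 with alcohol, and 732 and 648 with co-treatment. All 4 exposed libraries were below both controls, with -0.89 (adjusted p = 0.108) and -0.60 (adjusted p = 0.196) by edgeR. TUBB2B measured 37.2 and 37.0 FPKM, then 25.0 and 21.8, then 31.8 and 29.3. Its 3 groups did not overlap, with -0.70 (adjusted p = 0.0916) and -0.33 (adjusted p = 0.334) by edgeR. The alcohol difference of TUBB2B passed in 3 of 14 alternatives, with adjusted p from 0.0303 to 0.592 by edgeR, DESeq2 or limma. Summed tubulin FPKM was 2173 to 2971 in control, 1482 to 1724 with alcohol and 1763 to 1840 with co-treatment.

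Of the actin genes, the other classical substrates, ACTA2, the smooth muscle alpha-actin that immature cardiomyocytes also express, fell with co-treatment. It measured 507 and 580 FPKM in control, 337 and 203 with alcohol, and 248 and 224 with co-treatment. All 4 exposed libraries were below both controls. By edgeR the log2 fold change was -1.25 (SE 0.20) with an adjusted p = 0.0203 for co-treatment, and -1.04 (SE 0.20) with an adjusted p = 0.0797 for alcohol. Over the 14 alternatives the adjusted p for co-treatment ran from 0.000257 to 0.349 and passed in 9. It was lost in both limma fits, without a filter on low counts, and in edgeR without either co-treated replicate. The list held 5 genes. With co-treatment edgeR called 1 lower (0.362% of all genes in either direction), DESeq2 1 (1.12% of all genes) and limma 0. At an unadjusted p under 0.05, 4 of 5 were lower with co-treatment, against 6.37% of all genes. With alcohol the 3 tools called 0 of 5, and 2 were lower at an unadjusted p under 0.05, against 5.78% of all genes. The alcohol difference of ACTA2 passed in 4 of 14 alternatives. The medians were -0.55 and -0.85. Summed actin FPKM was 2946 to 4168, 1463 to 3262 and 1890 to 2045 in the 3 groups, led by cardiac actin ACTC1.

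The mitochondrial chaperonin, a separate folding cage, had fitted values below 0 for both of its genes, with medians of -0.29 and -0.14. Of the 2, 0 were called by edgeR, DESeq2 or limma in either comparison with control (0.0670% and 0.362% of all genes by edgeR). At an unadjusted p under 0.05, 1 was lower with alcohol (HSPD1) and 0 with co-treatment, against 5.78% and 6.37% of all genes. HSPD1, the barrel of this chaperonin, measured 221 and 215 FPKM in control, 189 and 174 with alcohol, and 197 and 209 with co-treatment. All 4 exposed libraries were below both controls, with -0.30 (adjusted p = 0.382) and -0.15 (adjusted p = 0.671) by edgeR. HSPE1, its lid, gave -0.28 (adjusted p = 0.487) and -0.12 (adjusted p = 0.776). Of 16 cytosolic heat shock chaperones and their helpers, 0 were called by edgeR, DESeq2 or limma in either comparison, with medians of -0.13 in both. At an unadjusted p under 0.05, 2 and 1 of the 16 were lower, against 5.78% and 6.37% of all genes. STIP1, the adaptor between HSP70 and HSP90, gave -0.44 (adjusted p = 0.179) and -0.38 (adjusted p = 0.201) by edgeR. FKBP4, a helper of HSP90, gave -0.26 (adjusted p = 0.481) and 0.11 (adjusted p = 0.772), and 0.37 (adjusted p = 0.836) in co-treatment against alcohol. HSP90AA1, the inducible HSP90, gave -0.44 (adjusted p = 0.295) and -0.27 (adjusted p = 0.502). HSPA1A, the inducible HSP70, gave 0.06 (adjusted p = 0.947) and -0.33 (adjusted p = 0.479), and HSF1, the main heat shock factor, 0.06 (adjusted p = 0.928) and 0.15 (adjusted p = 0.753).

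**Figure D4:**
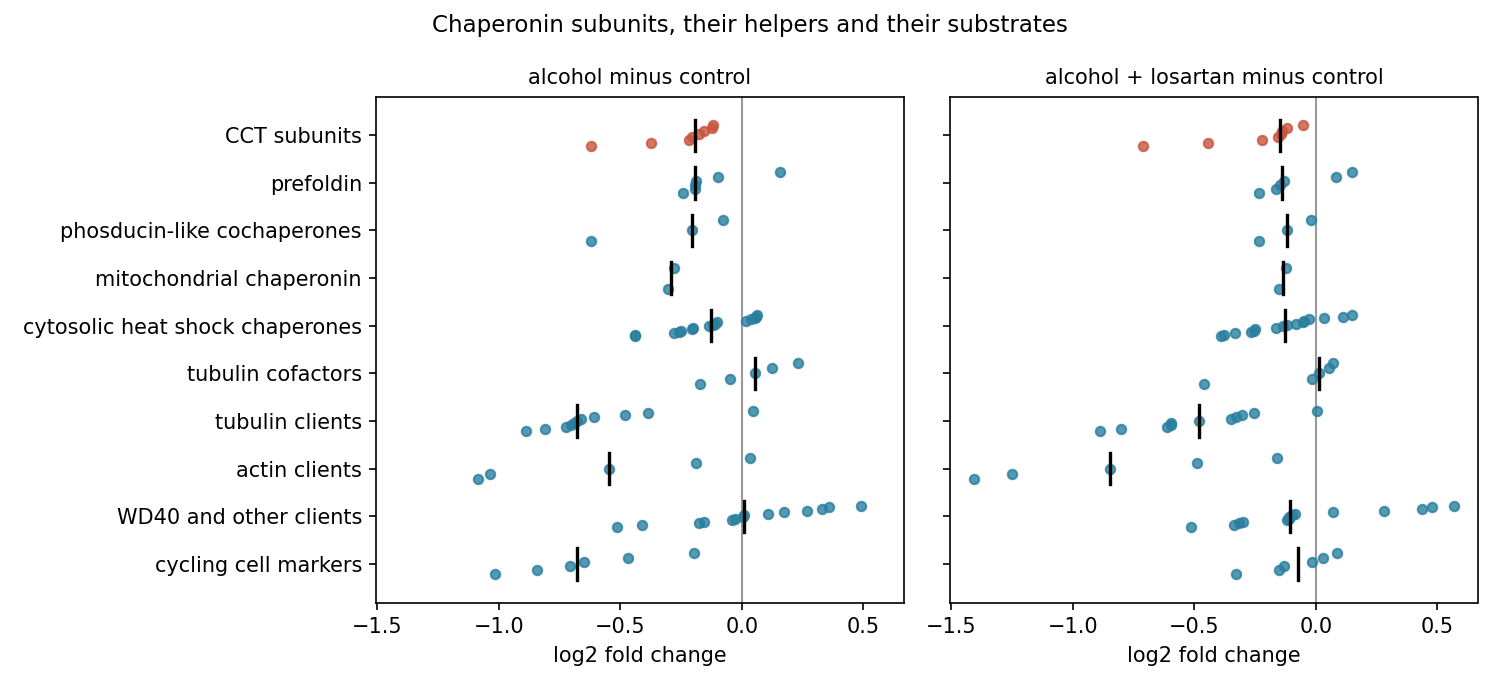
Fitted log2 fold change (horizontal axis, edgeR) of each gene, as points, in the CCT set, its helpers, its substrates and cycling cell markers (rows), against control, with a black line for the median of each row. The CCT medians were -0.19 with alcohol and -0.15 with co-treatment, those of tubulin -0.68 and -0.48, and that of the cycling markers -0.68 with alcohol and -0.07 with co-treatment.

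Marker genes of other cell types and states were also compared, and edgeR and limma called 0 genes of these lists in either comparison with control. All 6 cycling cell markers had a fitted value below 0 with alcohol (median -0.68), against 50.6% of all genes. At an unadjusted p under 0.05, 5 of them were lower, against 5.78% of all genes, with 0 called by DESeq2. Their summed FPKM was 163 and 239 in control, 129 and 137 with alcohol, and 210 and 179 with co-treatment, and none was listed at 0. With co-treatment against control the median of the cycling markers was -0.07, with 0 at an unadjusted p under 0.05, against 6.37% of all genes lower. In co-treatment against alcohol their median was 0.63, with 6 of 6 above 0 and 0 called by edgeR, DESeq2 or limma. At an unadjusted p under 0.05, 5 were higher there, against 5.55% of all genes in either direction. The 4 smooth muscle markers had medians of -0.49 and -0.46, and their summed FPKM was 1133 to 1445 in control, 539 to 1142 with alcohol and 766 to 836 with co-treatment. The 5 endothelial markers were low, and 4 of them were tested. Their median was 0.02 with alcohol, with 2 above 0 and 2 below. With co-treatment it was 0.47, with 3 above 0 and 1 below. The summed FPKM of the 5 was 5.88 to 6.86 in control, 7.43 to 8.53 with alcohol and 8.90 to 10.53 with co-treatment, with at most 1 listed at 0 in a library. KDR, a VEGF receptor, made up most of this sum, with 4.00 and 3.70, 5.18 and 6.53, and 6.67 and 7.70 FPKM. Both control libraries of KDR were below all exposed libraries, with 0.57 (adjusted p = 0.235) and 0.86 (adjusted p = 0.0502) by edgeR, and DESeq2 called it with co-treatment. Fibroblast markers (8 genes) had medians of 0.13 and 0.07, with 421 to 467, 482 to 516 and 468 to 518 FPKM. The 5 endoderm markers summed to 35.2 to 36.5, 47.7 to 47.9 and 44.1 to 47.4 FPKM, with at most 1 of the 5 listed at 0 in a library. The part of these markers in the values of the subunits was not tested.

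The genes whose levels across the 6 libraries were most like the mean of the 8 subunits were found by the root mean square distance of log2 TMM-scaled CPM, centred for each gene on its mean over the 6 libraries, among 4880 genes of similar level. These were ZAK (distance 0.0215), a stress-activated kinase, EIF4H (0.0216), a translation initiation factor, OST4 (0.0255), a subunit of the oligosaccharyltransferase, RAB1A (0.0281), a GTPase of transport from the endoplasmic reticulum, and EMP2 (0.0282), a membrane protein. The median distance of the candidates was 0.178. The subunits themselves lay between 0.0540 (TCP1) and 0.219 (CCT2) from their own mean, so CCT2 was farther from it than the median candidate gene. This distance counts the size of differences as well as their direction, and the mean includes CCT2. The centred values of CCT2 were 0.32 and 0.57 (control), -0.02 and -0.34 (alcohol), and -0.43 and -0.11 (co-treated). Those of the mean were 0.15 and 0.18, -0.01 and -0.16, and -0.17 and 0.004.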

How the data were processed

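RNA-seq libraries of control, alcohol-treated and co-treated H9-derived cardiomyocytes (2 each) were assigned to groups from their labelled treatment. The authors deposited expected counts (estimated reads per gene, not always whole numbers), a transcript length and the FPKM (that count scaled by length and library reads). The submitters' processing notes name HISAT2 2.0.4, Bowtie2 2.2.5, RSEM 1.2.12 and the build hg38, without their roles. Estimated counts of similar copies can be split between genes, and the FPKM of a gene depends on its estimated length, which varied between libraries by at most 2.83% (CCT5).

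Expected counts were rounded, filtered with filterByExpr and scaled by TMM. A single edgeR 4.0.16 model (R 4.3.3) of the 6 libraries gave two-sided quasi-likelihood F tests, whose p-values were Benjamini-Hochberg adjusted across the 14926 genes left (threshold 0.05). All 8 subunits passed the filter. Intervals (95%) used the t distribution of the fit. Alternatives used DESeq2 1.42.0, limma 3.58.1 on log2(FPKM + 1) or log2(FPKM + 0.1), RLE size factors, every gene unfiltered, a minimum of 10 counts per library, a block for replicate number, a fit of just the 4 libraries in a comparison, and each library left out in turn. The script was tested on simulated data. At these depths (4898287 to 5051448 counts a library) the floor of 3 counts was 0.594 to 0.612 CPM, and it covers counting error only.

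The subunits and the related lists were chosen with earlier results of these data known. Named were the subunits, the genes of a related list that passed the test or else the 2 with the smallest p in any of the 3 comparisons, genes overlapping a subunit, CCT pseudogenes and the 5 genes most like the subunits. TNNT2, KDR, PFDN5, HSPA1A, HSP90AA1, HSF1, ACTC1 and the tubulin genes called by DESeq2 were named after their values were seen. CCT8L2 and PDCL2 were not listed. Positions and upstream sequences came from RefSeq (GRCh38.p14), and exonic overlaps from GENCODE. Figures were drawn with matplotlib 3.10.9.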

Additional observations from a re-analysis of the deposited data

How the results depend on the processing

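No subunit was called in the comparisons as reported. With 2 libraries a group, differences like that of CCT2 lie near what these libraries can call, and its adjusted p crossed 0.05 in some settings. In co-treatment against control the number of subunits called was 1 (CCT2) with DESeq2 (adjusted p = 0.0113), with at least 10 counts in every library (edgeR adjusted p = 0.0446), with the replicate block (edgeR adjusted p = 0.0438) and with only the 4 libraries compared (edgeR adjusted p = 0.0273). It ran from 0 to 1 with each library left out, as it did in alcohol against control. For co-treatment against control, the call among these fits came only where an alcohol library, not part of that comparison, was left out. Deviations of same-numbered libraries from their group means correlated at 0.11, -0.016 and 0.041 between groups. These values show no large shared deviation, but they cannot tell whether the samples were paired. The block raised the genes called from 10 to 48, from 54 to 136 and from 2 to 5, changing no other call among the subunits. Among related genes the block also called TUBB2B and ACTA2 in alcohol against control and KDR in co-treatment against control. Over all genes and in the same order, against 10, 54 and 2 by edgeR, DESeq2 called 72, 128 and 5, limma on log2(FPKM + 1) 0, 2 and 1, edgeR with no filter 2, 15 and 1, with at least 10 counts 26, 78 and 0, and with only the 4 libraries 3, 158 and 4. Leaving out a library gave 1 to 220, 2 to 184 and 1 to 24 genes, the highest of each without alcohol replicate 1. The cause was not tested. Among 112 values a comparison, all were below 0 for alcohol against control and 110 for co-treatment against control. The 2 exceptions came without co-treated replicate 1, where CCT4 (leave-one-out range -0.25 to 0.0038) and CCT8 (-0.17 to 0.060) changed sign.

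In co-treatment against alcohol, where no subunit was near a call, 16 of 112 values changed sign. CCT4 gave -0.0016 with limma on log2(FPKM + 1) and on log2(FPKM + 0.1), -0.0087 with no filter and -0.0089 with only the 4 libraries compared. Leave-one-out ranges were -0.13 to 0.12 for CCT4, -0.26 to 0.070 for CCT2, -0.23 to 0.093 for CCT5, -0.11 to 0.066 for CCT7, -0.11 to 0.13 for CCT6A, -0.064 to 0.027 for CCT3, -0.054 to 0.17 for TCP1 and -0.078 to 0.093 for the median of the 8. Counts without length scaling gave other control shares by construction: TCP1 10.1%, CCT2 10.3%, CCT3 14.3%, CCT4 13.3%, CCT5 11.7%, CCT6A 13.3%, CCT7 14.0% and CCT8 13.0%. On counts the share of CCT4 differed from control by 1.04 points with alcohol and that of CCT5 by -1.66 points with co-treatment, in the same direction as on FPKM.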

Other observations

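The CCT ring has distant relatives that are not part of it. The 4 listed paralogs were CCT6B, a testis form of the zeta subunit, and MKKS, BBS10 and BBS12, the chaperonin-like proteins that help to assemble the ciliary BBSome. They were low, summing to 29.3 to 33.8 FPKM in control, 33.3 to 40.3 with alcohol and 33.1 to 41.1 with co-treatment. Their median log2 fold changes, 0.12 and 0.32, were on the other side of 0 from those of the ring subunits. By edgeR, DESeq2 or limma 0 were called, where edgeR called 0.0670% and 0.362% of all genes. At an unadjusted p under 0.05 there were 0 of 4, against 1649 and 1885 of all 14926 genes in either direction. BBS10 measured 8.41 and 8.49 FPKM in control, 9.56 and 10.98 with alcohol, and 9.41 and 11.98 with co-treatment. Its exposed libraries were above both controls, with 0.24 (adjusted p = 0.661) and 0.30 (adjusted p = 0.49997) by edgeR. BBS12 gave 0.59 (adjusted p = 0.566) and 0.56 (adjusted p = 0.542).

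Proteins with a WD40 propeller and other less classical substrates of CCT had fitted values on both sides of 0. Their medians were 0.01 and -0.10 over 14 genes, with 3 higher and 1 lower at an unadjusted p under 0.05 with alcohol, and 3 higher and 3 lower with co-treatment. Over all 14926 genes tested, 1649 with alcohol and 1885 with co-treatment were at that level in either direction, and 5.78% and 6.37% were lower. STAT3, a transcription factor folded by CCT, measured 31.7 and 32.1 FPKM in control, 39.0 and 44.9 with alcohol, and 45.9 and 45.6 with co-treatment. The control libraries were below all exposed libraries, with 0.36 (adjusted p = 0.253) and 0.48 (adjusted p = 0.0885) by edgeR. The list had 0 genes called by edgeR and 0 by limma in both comparisons, and DESeq2 called STAT3 with co-treatment. STRN, a scaffold of the STRIPAK phosphatase complex, gave 0.27 (adjusted p = 0.412) and 0.44 (adjusted p = 0.123).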
